A study of Equus asinus with 6 samples.

Results

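The ADAM, ADAMTS and MMP metalloproteinases, with the ADAMTS-like proteins that share their ancillary domains, were examined in longissimus dorsi, a long back muscle, from the Guangling donkey (Equus asinus). Members were the genes whose symbol in the deposited count table begins with ADAM, ADAMTS, ADAMTSL or MMP followed by a digit. They numbered 53 of the 20873 genes listed: 14 ADAM, 19 ADAMTS, 5 ADAMTSL and 15 MMP genes. There were 3 RNA-seq libraries of muscle with high content of intramuscular fat (IMF), which lies among the muscle fibres, and 3 of muscle with low content. Every library came from animals aged 24 months, frozen soon after slaughter, and no other treatment or genotype is given in the labels. The sources used here give neither the fat content nor whether each library had its own animal, so p-values reflect only the spread among these libraries, which may be technical.

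MMPs and ADAMTS proteases are secreted or membrane-bound zinc enzymes that cut the collagens, proteoglycans and adhesive proteins of the extracellular matrix. ADAMs sit in the plasma membrane, and the active ones release the outer parts of growth factors, cytokines and receptors. ADAMTS-like proteins have the thrombospondin repeats of ADAMTS enzymes without the protease domain and bind to microfibrils. In muscle the matrix around fibres is made and turned over mainly by fibroblasts and fibro-adipogenic progenitors, the stromal cells from which intramuscular fat cells can also arise. Leukocytes, endothelial cells and fat cells add their own members of these families.

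The libraries held 39052998 to 47494157 assigned reads, of which members took 21793 to 47905 reads, or 0.0555% to 0.112%. Levels are given as CPM, reads relative to the library's total after adjustment by the trimmed-mean method (TMM). The 6 muscle fibre markers found (MYH2 was not listed) summed to 78261, 79054 and 137281 CPM with high IMF against 96909, 142277 and 134277 with low IMF. The 6 adipocyte markers summed to 478, 605 and 325 CPM with high IMF against 479, 489.7 and 452 with low IMF, and the groups overlapped. PLIN4 and FABP4, which had negative log2 folds, carried most of that sum in every library but high IMF replicate 2. The median log2 fold of the 6 was 1.55 with 4 of them positive, and LEP was at 0 reads in at least 1 library. Their median log2 level by library was 0.64, 2.79 and -0.98 with high IMF against -2.68, 0.2 and 0.1 with low IMF, so that it too overlapped between the groups. Libraries are given in the order of replicates 1, 2 and 3 throughout. The 8 fibroblast markers summed to 1422, 1271 and 320.3 CPM with high IMF against 378, 706 and 774 with low IMF, so that the third high IMF library was the lowest of the 6. The 7 myeloid markers found summed to 135, 73.4 and 40 CPM with high IMF against 43.3, 35.8 and 34.4 with low IMF. Lymphocyte markers had a median log2 fold of 1.29 (7 of 8 positive), endothelial markers -0.51 (6 of 7 negative) and smooth muscle markers -0.85 (4 of 5 negative). At an unadjusted p under 0.05 in edgeR, 3 lymphocyte, 3 myeloid, 2 fibroblast, 2 neutrophil and 1 adipocyte markers were higher. In the lower direction there were 3 endothelial and 2 smooth muscle markers, and 0 markers passed after adjustment in edgeR. DESeq2 gave an adjusted p of 0.0375 for SPI1 (myeloid, higher). Its values were 0.000663 for FLT1 (endothelial, lower) and 0.0191 for MYH11 (smooth muscle, lower). In such bulk RNA, fewer cells of a type and less RNA per cell cannot be told apart. Low IMF replicates 2 and 3 were much closer to each other than any other pair of the same group (chi-square of their counts per degree of freedom 7.56, against 193 to 556), but still differed by more than sampling noise and were kept as 2 libraries.

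By transcript level per gene length, a small number of members made up most of the family's signal. ADAMTS1 (mean of 38.4 FPKM over the 6 libraries, reads per gene length and library total), MMP2 (30.8), MMP15 (26.4), ADAMTSL5 (26.1) and ADAM15 (11.6) were the 5 members above 10 FPKM, and 20 more lay between 1 and 10. The remaining 28 lay under 1 FPKM. ADAMTS1 alone held 18% of the summed FPKM of the members and MMP2 14.4%. Neighbours in this order were often not separable, since ADAMTS1 spanned 9.51 to 52.8 FPKM and MMP2 12.1 to 65.4 across the libraries. MMP15 and ADAMTSL5 spanned 17.7 to 41.2 and 20.5 to 36.1 FPKM. After ADAM15 came MMP11 (7.46 FPKM), ADAM17 (6.22), MMP14 (6.06), ADAM9 (5.5) and ADAMTSL4 (5.32).

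**Figure D1:**
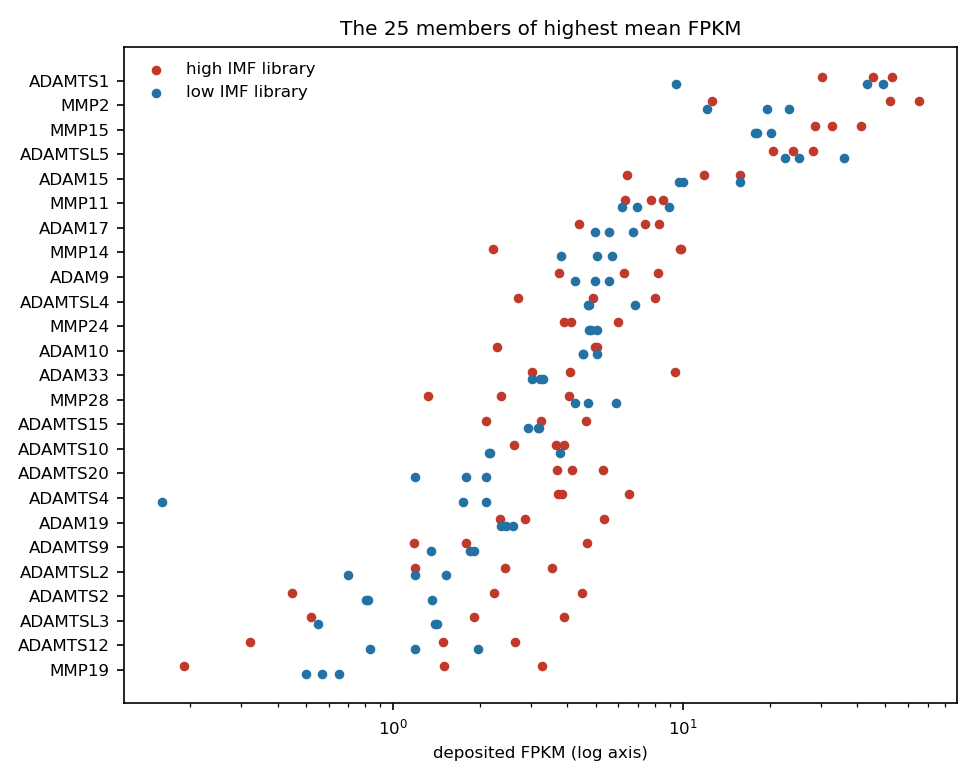
Deposited FPKM (x axis, log scale) of the 25 members of highest mean, one row per gene, with one point per library (red for high IMF, blue for low IMF). ADAMTS1, MMP2, MMP15 and ADAMTSL5 head the order, and the lone low point of ADAMTS4 at 0.16 FPKM is low IMF replicate 1.

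High and low IMF muscle were compared to ask which of these genes vary with fat content. After the filter on low counts 48 of the 53 members were tested, in a fit across all 15933 genes that passed it. At an adjusted p under 0.05, edgeR's quasi-likelihood test called 0 of the 48 members, and 0% of all genes tested; limma-voom also called 0. Before adjustment, edgeR's p was under 0.05 for 7 members (14.6%), beside 7.27% of all genes. Of these, 6 (12.5%) lay higher in high IMF muscle, beside 4.53% of all genes, namely MMP15, ADAMTS20, MMP9, ADAMTS14, ADAMTSL2 and ADAM23. This number was 13 when high IMF replicate 3 was left out and 3 when low IMF replicate 3 was. The remaining one of the 7, MMP28, lay lower (2.08%, beside 2.74%). Of the 6 higher ones, MMP9 passed the filter on low counts only through its high IMF libraries. The median fitted log2 fold of high over low was 0.45 over the 48 members and 0.01 over all genes, and 34 of the 48 (70.8%) were positive, beside 51.2% of all genes. Leaving out high IMF replicate 1 gave a member median of 0.17, leaving out replicate 2 of that group 0.25 and leaving out replicate 3 of it 0.65.

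The DESeq2 Wald test, run as an alternative, called 2 of the 48 members at an adjusted p under 0.05, MMP15 and ADAMTS20, both higher in high IMF muscle, beside 1.16% of its genes (0.68% in that direction and 0.477% in the opposite one). The authors' deposited table gave the same 2 members, with adjusted p of 0.0132 and 0.0336, and marked ADAMTS20 alone as up. It rests on the same counts and is no separate evidence. The members called moved with single libraries of both groups, as did the number of all genes called, which was 194 with every library. Leaving out high IMF replicate 1 gave 3 members (MMP15, ADAMTS20 and MMP9) among 301 genes. Leaving out high IMF replicate 2 gave 2 (MMP15 and MMP28) among 130, and high IMF replicate 3 gave 5 (MMP2, MMP15, MMP19, ADAM12 and ADAMTS2) among 635. On the low side, leaving out replicate 1 gave 5 (MMP15, MMP25, ADAMTS4, ADAMTS14 and ADAMTS20) among 424, replicate 2 gave 0 among 63 and replicate 3 gave 1 (ADAMTS20) among 79. Member counts were thus highest in the runs that called most genes.

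**Figure D2:**
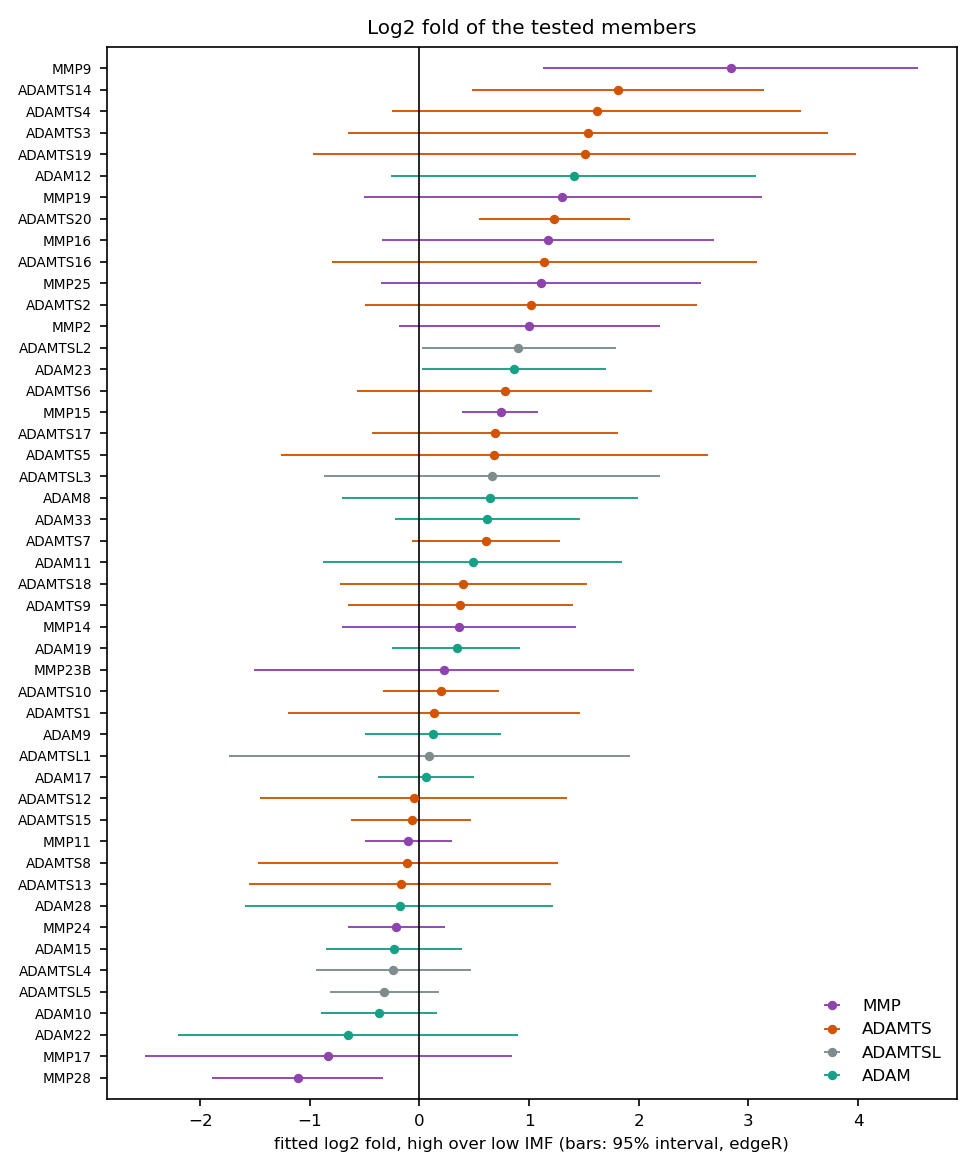
Fitted log2 fold of high over low IMF (x axis) for the 48 tested members, ordered by value, with 95% intervals from edgeR and colours by family. The intervals of 7 members leave out 0, of which MMP28 alone lies to the left, and that of MMP15 is among the narrowest.

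Among the membrane-type MMPs, which hold their active site at the cell surface, MMP15 stood out by its small spread. MMP15 (MT2-MMP, anchored by a transmembrane helix) measured 107, 87.3 and 97.6 CPM with high IMF against 58.1, 59.6 and 57.2 with low IMF. Every high library was thus above every low library, and the low libraries lay close together. The means of 97.2 ± 9.67 and 58.3 ± 1.25 CPM (SD, n = 3) gave a fitted ratio of 1.67 (log2 fold 0.74, SE 0.15). It ranked 40 among the 15933 genes by p (unadjusted 0.00137), with an adjusted p of 0.504 in edgeR. DESeq2 gave an adjusted p of 0.0131, which ran from 0.00881 to 0.204 when each library was left out and passed in 4 of those 6 runs. The fitted log2 fold kept between 0.65 and 0.79 in the corresponding edgeR runs. The fibroblast marker sum was lowest in high IMF replicate 3, where MMP15 was 97.6 CPM. The part of cell composition in the MMP15 difference was not tested.

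The 5 other membrane-type members tested differed in direction. MMP14 (MT1-MMP), which activates the proenzyme of MMP2 at the cell surface, measured 24.4, 24.9 and 7.24 CPM with high IMF against 10.5, 16 and 17.7 with low IMF. Its high IMF replicates 1 and 2 lay above and its high IMF replicate 3 below every low library. The transmembrane enzyme MMP16 had the same order at a lower level, with 2.36, 1.43 and 0.406 CPM against 0.459, 0.63 and 0.778. MMP25, a leukocyte enzyme held by a lipid anchor, measured 1.28, 2.91 and 3.65 CPM against 2.25, 0.679 and 0.681, with overlap through low IMF replicate 1. MMP24, known from nervous tissue, stayed between 15.6 and 23.8 CPM in all 6 libraries, and the 95% interval of its log2 fold was -0.65 to 0.23. MMP17, also lipid-anchored, measured 0.265 CPM in high IMF replicate 1 and 1.62 to 3.19 CPM in the other 5 libraries.

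The gelatinases MMP2 and MMP9 digest denatured collagen and basement membrane collagen. MMP2, made mainly by stromal cells, measured 151, 123 and 38.4 CPM with high IMF against 31.2, 58 and 67.2 with low IMF. The groups overlapped, because high IMF replicate 3 lay between low IMF replicates 1 and 2. Its mean of 104 ± 58.6 against 52.1 ± 18.7 CPM (SD, n = 3) gave a log2 fold of 1 (SE 0.51, 95% interval -0.19 to 2.19), with an adjusted p of 0.752 in edgeR. When that library was left out the log2 fold was 1.39, and DESeq2 then gave an adjusted p of 0.00882. In the other runs without 1 library DESeq2 gave 0.689 or above. The small value thus rests on leaving out the high library that overlapped.

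MMP9, which leukocytes store and release, was counted at only 14, 53 and 20 reads with high IMF against 2, 6 and 3 with low IMF. On the CPM scale this was 0.309, 0.994 and 0.579 against 0.0417, 0.145 and 0.073, without overlap. Low IMF replicates 1 and 3 had 2 and 3 reads, so the ratio between the groups rests on very few reads. MMP9 also passed the filter on low counts only through its high IMF libraries. Its fold, interval and p-values carry that selection and are no support for a difference. The fitted ratio was 7.14 (log2 fold 2.84, SE 0.73, 95% interval 1.13 to 4.55), with an adjusted p of 0.517 in edgeR and 0.0864 in DESeq2. Beside it, the 6 neutrophil markers summed to 6.25, 5.2 and 7.97 CPM with high IMF against 3.86, 3.25 and 2.92 with low IMF. These sums did not overlap, but single markers were apart only for S100A8 and S100A12, and CSF3R, ELANE, S100A9 and MPO overlapped. MMP9 was highest in high IMF replicate 2, where the neutrophil sum was the lowest of that group. Of the 6 markers S100A8 and MPO were at 0 reads in at least 1 library. The part of leukocyte number in the MMP9 difference was not tested.

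The collagenases, which cut intact fibrillar collagen, were at the edge of detection. MMP8, the collagenase of neutrophil granules, had 2, 4 and 6 reads in the high IMF libraries and 0 reads in each low IMF library. Taken relative to all reads, those 12 reads were 4.34 times a limit of 3 reads over the low IMF group. That limit covers counting error in the low group only, and error in the 12 reads was not included. MMP1 had 6 reads, all in high IMF replicate 2. MMP21 had 1 to 6 reads in every library. ADAM2 (a sperm surface protein) and ADAM30 had 3 and 4 reads, again all in high IMF replicate 2. These 5 genes were the members that did not pass the filter on low counts, and no test was made for them.

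Of the other MMPs, MMP28 was the only member at an unadjusted p under 0.05 in the lower direction. MMP28 (epilysin, known from skin and testis) measured 5.08, 8.99 and 3.74 CPM with high IMF against 14.2, 12.9 and 11.4 with low IMF. Every high library lay below every low one, and the fitted ratio of low over high was 2.16 (log2 fold -1.11, SE 0.33). The adjusted p was 0.528 in edgeR and 0.113 in DESeq2. It was 0.000229 in DESeq2 without high IMF replicate 2, the high library nearest to the low group. In the other DESeq2 runs without 1 library it was 0.135 to 0.51, so the small value rests on that choice of library. With library size as the only scaling, under which the all-gene median log2 fold moves from 0.01 to 0.15, MMP28 did not reach an unadjusted p under 0.05 and kept its sign. MMP19, an enzyme of vessels and macrophages, measured 3.07, 6.92 and 0.521 CPM against 1.31, 1.31 and 1.65, the order seen for MMP14 and MMP16. MMP11 (stromelysin-3, activated inside the cell by furin) measured 13.5, 15.4 and 14.6 CPM against 17.6, 15.6 and 13.5. Its groups overlapped, and the 95% interval of its log2 fold of -0.1 was -0.5 to 0.3, with a value of 0.03 under library size only. MMP23B lay at 0.145 to 0.751 CPM with overlap.

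**Figure D3:**
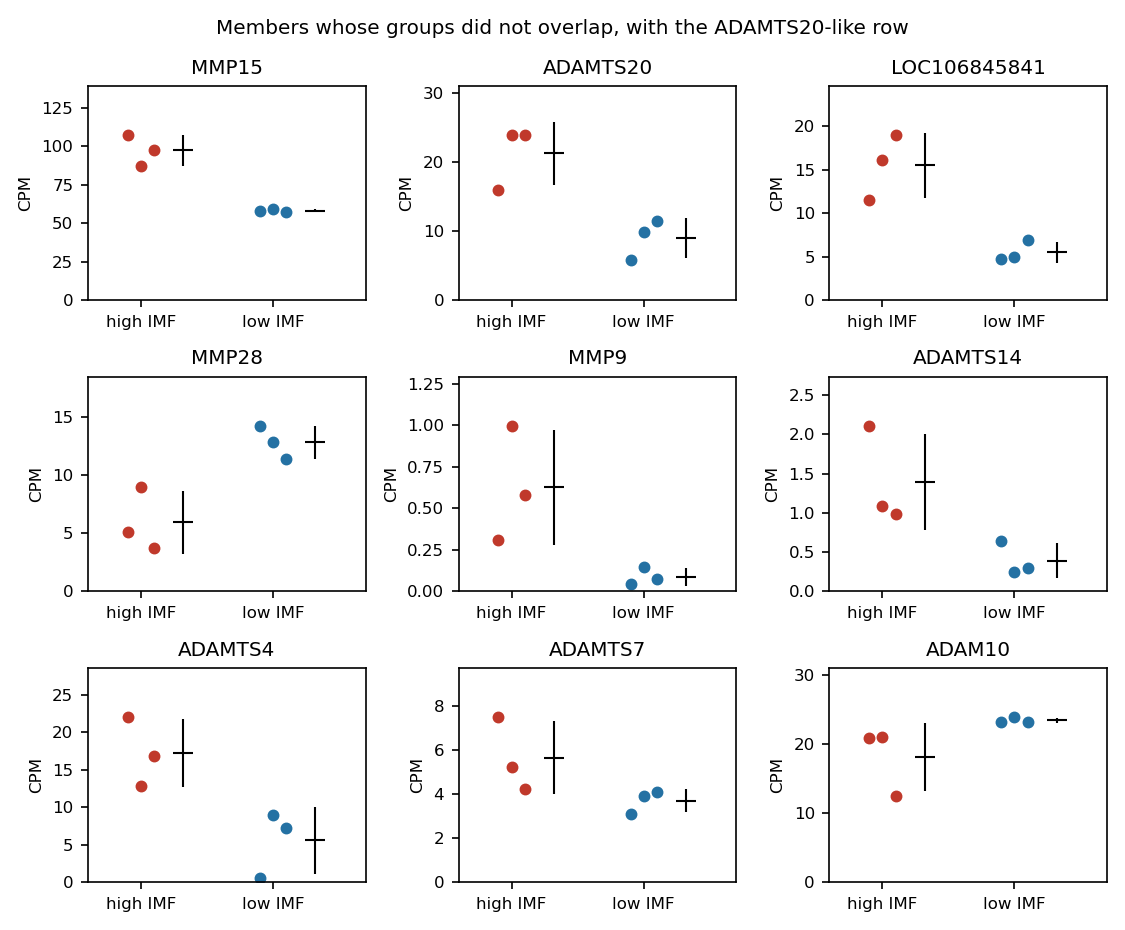
CPM by library (y axis from 0, one panel per gene) for the 8 tested members whose groups did not overlap and for LOC106845841, listed as ADAMTS20-like. Points are libraries (red high IMF, blue low IMF) and bars mean ± SD (n = 3). MMP28 and ADAM10 lie lower in high IMF muscle and the other panels higher.

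The groups did not overlap for 8 of the 48 tested members, beside 13% of all genes. They were apart for 6 in the higher direction (12.5%, beside 6.86% of all genes) and 2 in the lower direction (4.17%, beside 6.1%). The higher ones were MMP15, MMP9, ADAMTS4, ADAMTS7, ADAMTS14 and ADAMTS20. Thus 4 of the 6 were ADAMTS proteases, a family that made up 19 of the 48 tested members. ADAM10 joined MMP28 on the lower side. MMP9 was among the tested members only through its high IMF libraries.

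ADAMTS20 belongs with ADAMTS9 to the proteases that cut the proteoglycan versican and is known for its part in pigment cell and palate development. It measured 16, 23.8 and 23.8 CPM with high IMF against 5.79, 9.94 and 11.4 with low IMF. The means of 21.2 ± 4.5 and 9.03 ± 2.89 CPM (SD, n = 3) gave a fitted ratio of 2.35 (log2 fold 1.23, SE 0.3, 95% interval 0.54 to 1.92). Adjusted p-values were 0.51 by edgeR and 0.0335 by DESeq2, where they ran from 0.00851 to 0.271 over the runs without 1 library and passed in 3 of 6. The table lists a further gene outside the naming rule, LOC106845841, whose protein the authors' annotation describes as ADAMTS20-like. That gene was singled out after its values were seen. It measured 11.5, 16.1 and 18.9 CPM with high IMF against 4.77, 4.92 and 6.91 with low IMF, again without overlap.

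The ADAMTS20-like gene had a fitted ratio of 2.8 (log2 fold 1.49, SE 0.26), an unadjusted p of 0.000665 and rank 24 among all genes. After adjustment p was 0.431 by edgeR and 0.00065 by DESeq2, and the DESeq2 value stayed between 7.83e-06 and 0.0455 in all 6 runs without 1 library. The authors' deposited table gave it 0.000654 and the mark up. The reads of ADAMTS20 over those of this gene were 1.39, 1.48 and 1.26 with high IMF against 1.21, 2.02 and 1.64 with low IMF, and these ratios overlapped. How the counting divided reads between the 2 genes is not given in the sources used here, so they are not independent evidence. Of the 6 other genes described as ADAM proteins under a LOC number, 3 had enough reads to be tested, and none of those 3 reached an unadjusted p under 0.05.

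Of the other proteoglycan-cutting ADAMTS genes, low IMF replicate 1 was the lowest library for all but ADAMTS15, as it was for 21.1% of all genes. These 5 were ADAMTS1, ADAMTS4, ADAMTS5, ADAMTS8 and ADAMTS9. For ADAMTS5, ADAMTS8 and ADAMTS9 it lay only slightly below high IMF replicate 3 (1.54, 0.625 and 9.61 against 1.65, 0.753 and 9.88 CPM). ADAMTS4 (aggrecanase-1) measured 22, 12.9 and 16.9 CPM with high IMF against 0.584, 9.02 and 7.3 with low IMF. The groups did not overlap, yet low IMF replicate 1 lay far below the other low libraries. Its log2 fold was 1.62 (SE 0.79, adjusted p of 0.75 in edgeR) and 1.07 without that library. DESeq2 gave an adjusted p of 0.0437 without that library and 0.404 to 0.894 in the other runs without 1 library. ADAMTS1, an inducible protease of versican and aggrecan, measured 183, 220.3 and 161 CPM with high IMF against 43, 255 and 219 with low IMF. Low IMF replicate 1 again stood apart, and the log2 fold of 0.13 became -0.34 without it.

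Low IMF replicate 1 was also the lowest library for transcripts of immediate early genes, which tissue handling and stress can induce within minutes to hours. Over 8 such genes, chosen after the values were seen, the summed level was 122 CPM in low IMF replicate 1, 1192 and 1039.8 CPM in the other low libraries and 1161 to 3079 CPM in the high IMF libraries. All 8 had a positive log2 fold, with a median of 1.31, and edgeR gave an unadjusted p under 0.05 for 3. The groups were apart for FOS, EGR1, EGR3 and BTG2 and overlapped for FOSB, JUNB, ATF3 and IER2. DESeq2 gave adjusted p-values of 0.0334 for EGR3, 0.0141 for BTG2 and 0.265 or above for the others. The part of these genes in the ADAMTS1 and ADAMTS4 values was not tested.

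ADAMTS5 (aggrecanase-2), which RefSeq places beside ADAMTS1 in the assembly EquAss-T2T_v2 with no protein-coding gene between them, measured 10.7, 15 and 1.65 CPM with high IMF against 1.54, 8.17 and 7.37 with low IMF, so that high IMF replicate 3 and low IMF replicate 1 were both low. It shared the low value in low IMF replicate 1 with ADAMTS1, whose high IMF replicate 3 was not low. ADAMTS9 measured 30 CPM in high IMF replicate 1 and 9.61 to 15.2 CPM elsewhere. ADAMTS15, with 10.1 to 16.9 CPM, and its RefSeq neighbour ADAMTS8, with 0.625 to 2.38 CPM, overlapped fully between the groups. The fitted log2 folds of these 2 genes, -0.07 and -0.11, changed sign with library size only (0.11 and 0.12).

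The procollagen N-proteinases ADAMTS2, ADAMTS3 and ADAMTS14 trim the amino-terminal propeptides of fibrillar procollagens so that fibrils can form. All 3 had a positive log2 fold, with a median of 1.54. ADAMTS14 measured 2.1, 1.09 and 0.985 CPM with high IMF against 0.646, 0.242 and 0.292 with low IMF. Its groups did not overlap, and the log2 fold was 1.81 (SE 0.57) with an adjusted p of 0.547 in edgeR and 0.138 in DESeq2. These values rest on 10 to 95 reads per library. ADAMTS2 measured 25.7, 13.2 and 3.36 CPM against 5.21, 6.01 and 9.7, with high IMF replicate 3 the lowest of all. ADAMTS3 owed its mean to high IMF replicate 1, with 7.89 CPM there and 0.521 to 1.43 CPM in the others, and its log2 fold of 1.54 became -0.34 without that library.

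Of the proteases that cut cartilage oligomeric matrix protein, ADAMTS7 measured 7.47, 5.23 and 4.23 CPM with high IMF against 3.11, 3.9 and 4.11 with low IMF. The lowest high library lay just above the highest low one, and edgeR gave an adjusted p of 0.736. Its relative ADAMTS12 ranged from 3.22 CPM in high IMF replicate 3 to 20.1 CPM in high IMF replicate 1, which enclosed all 3 low libraries. ADAMTS13, the liver-made protease of von Willebrand factor, lay at 0.331 to 1.24 CPM. The 6 remaining ADAMTS genes (ADAMTS6, ADAMTS10, ADAMTS16, ADAMTS17, ADAMTS18 and ADAMTS19) had log2 folds of 0.2 to 1.51, all with an unadjusted p above 0.05. ADAMTS10, which binds fibrillin microfibrils, had the highest FPKM of them (mean of 3.04) and measured 13.7 ± 1.06 and 12 ± 3.17 CPM (SD, n = 3). ADAMTS19 was at 3 reads in high IMF replicate 2 and at 61 and 62 reads in the other high libraries.

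**Figure D4:**
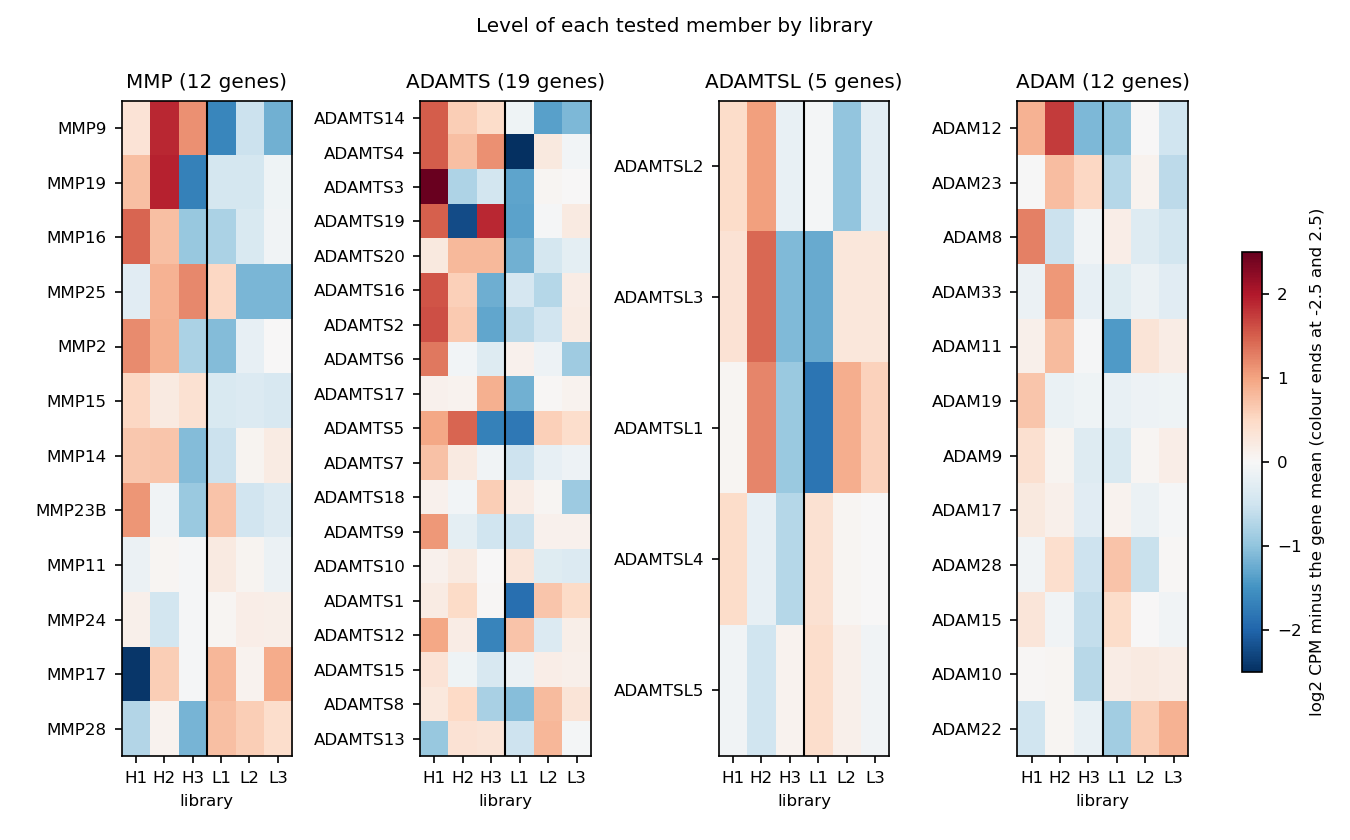
Level of each of the 48 tested members in each library, as log2 CPM after subtraction of the gene's mean, by family and in order of log2 fold within it. H marks high and L low IMF libraries, and red is above and blue below the gene's mean. The first and second high IMF columns are mostly red, the third is mixed, and the first low column holds the deepest blues of the ADAMTS panel.

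The ADAMTS-like genes divided between the groups. ADAMTSL2, which binds fibrillin and the latent form of TGF-beta, measured 9.24, 13.8 and 5.94 CPM with high IMF against 6.48, 3.39 and 5.64 with low IMF. Only high IMF replicate 3 and low IMF replicate 1 crossed. The log2 fold was 0.9 (SE 0.38, unadjusted p of 0.0462 and adjusted p of 0.678 in edgeR). ADAMTSL3 (punctin-2) measured 12.1, 25.6 and 4.35 CPM against 3.9, 11.5 and 11.4, which fitted a log2 fold of 0.66. Leaving out high IMF replicate 2 turned it to -0.12. ADAMTSL1 spread from 0.521 to 4.63 CPM with full overlap. The 2 most abundant of the class had negative log2 folds, -0.32 for ADAMTSL5 (49.7, 37.4 and 55.8 CPM against 71.3, 57.1 and 49.6) and -0.24 for ADAMTSL4 (31.2, 19.7 and 13.8 CPM against 29.7, 23.5 and 22.9), a fibrillin-binding protein of the eye and other tissues.

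The 9 tested ADAMs with an active protease site had a median log2 fold of 0.12, all with an unadjusted p above 0.05. ADAM10, the sheddase of Notch receptors and many other surface proteins, measured 20.9, 21.1 and 12.5 CPM with high IMF against 23.3, 23.9 and 23.3 with low IMF. The low libraries lay above every high one, by a small margin for high IMF replicates 1 and 2, and the log2 fold was -0.37 (SE 0.22, adjusted p of 0.825 in edgeR). ADAM17, which releases tumour necrosis factor, measured 22, 20.2 and 15.2 CPM against 19.9, 16.8 and 18.3, and the 95% interval of its log2 fold was -0.38 to 0.5. ADAM15 measured 52.1, 40.1 and 28 CPM against 58.4, 42.4 and 40, and ADAM9, a widely made sheddase, 9.94, 7.84 and 5.97 against 5.75, 7.73 and 8.39. For these 3 genes the groups overlapped, as they did for ADAM28 at 0.194 to 0.542 CPM.

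ADAM12, a meltrin first described in fusing muscle cells, marks activated stromal cells and regenerating muscle, and it measured 2.45, 4.58 and 0.579 CPM with high IMF against 0.625, 1.33 and 0.924 with low IMF. High IMF replicate 3 was the lowest library and high IMF replicate 2 the highest, and the log2 fold of 1.41 dropped to 0.65 when the latter was left out. ADAM19 measured 33.6 CPM in high IMF replicate 1 and 18.3 to 19.4 CPM in the other 5. ADAM33, made by mesenchymal cells, measured 37.3 CPM in high IMF replicate 2 and 14.1 to 15.8 CPM elsewhere. ADAM8, a leukocyte member, measured 2.3 CPM in high IMF replicate 1 and 0.619 to 1.04 CPM elsewhere. For these 3 genes a single high IMF library thus lay apart from the other 5.

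ADAMs without an active protease site act in cell adhesion, mostly in nerve. ADAM23 measured 2.81, 4.9 and 4.08 CPM with high IMF against 1.71, 3.01 and 1.78 with low IMF. Only low IMF replicate 2 lay above high IMF replicate 1, and the log2 fold was 0.86 (SE 0.36, unadjusted p of 0.0456 and adjusted p of 0.675 in edgeR). ADAM11 lay at 0.271 to 1.43 CPM and ADAM22 had 6 to 22 reads, both with overlap.

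Across members the libraries of one group differed in a shared way. High IMF replicates 1 and 2 both lay above every low library for 17 of the 48 members (35.4%, beside 16.2% of all genes). For 11 of these 17 (22.9% of the 48, beside 9.33%) high IMF replicate 3 did not. The 11 were MMP2, MMP14, MMP16, MMP19, ADAM12, ADAM17, ADAMTS2, ADAMTS5, ADAMTS16, ADAMTSL2 and ADAMTSL3, and the description was drawn up after their values were seen. For 7 of the 11 (MMP14, MMP16, MMP19, ADAM12, ADAM17, ADAMTS2 and ADAMTS16, or 14.6%, beside 4.61%) high IMF replicate 3 lay below every low library. The fibroblast marker list had that order, with a median level on the log2 scale of 1.09, 0.98 and -1.16 with high IMF against -0.99, -0.18 and -0.02 with low IMF. MMP15, ADAMTS20, ADAMTS4, ADAMTS7, ADAMTS14 and MMP9 were the 6 genes of the 17 for which high IMF replicate 3 also lay above every low library. High IMF replicate 1 was the highest library for 19 members and low IMF replicate 1 the lowest for 19 (39.6% each, beside 21.6% and 21.1% of all genes). High IMF replicate 2 was the highest for 11 (22.9%, beside 13.9%) and high IMF replicate 3 the lowest for 14 (29.2%, beside 21.8%). The muscle fibre marker sum had the reverse order within the high group. It was 78261 and 79054 CPM in the first and second library, below every low one, and 137281 CPM in the third. CKM and ACTA1 made up most of the sum in every library. Of the single markers, CKM, TNNT3 and MYLPF had this order, and ACTA1, MB and TNNI2 did not. MB measured 19601, 10409 and 22443 CPM with high IMF against 11849, 13754 and 12815 with low IMF. The part of stromal cell or fibre RNA in these levels was not tested.

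**Figure D5:**
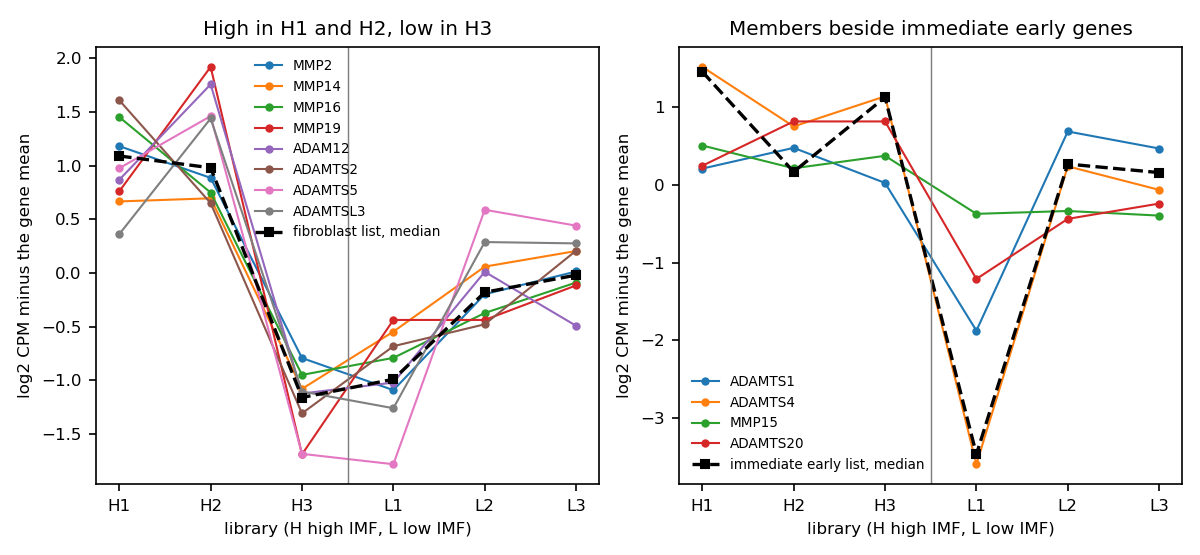
Level by library (log2 CPM less the gene's mean, H high and L low IMF, the lines only join values of one gene). Left, 8 of the 11 members for which the first and second but not the third high IMF library lay above every low library. The median of 8 fibroblast markers is dashed. ADAM17, ADAMTS16 and ADAMTSL2 of the 11 are not drawn, and MMP2, ADAMTS5 and ADAMTSL3 were lowest in low IMF replicate 1. Right, ADAMTS1, ADAMTS4, MMP15 and ADAMTS20 with the median of 8 immediate early genes dashed, which was -3.47 in low IMF replicate 1.

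Of the genes that act with these proteases, 52 were tested from a list of 62 inhibitors, activators, partners, substrates and related enzymes. At an unadjusted p under 0.05, edgeR placed 4 of them higher and 3 lower, beside 4.53% and 2.74% of all genes, and 0 passed after adjustment. Their median log2 fold was 0.14, beside 0.01 over all genes. The lower ones were the inhibitors TIMP4 and TIMP3 and the proteoglycan SPOCK2. TIMP4 measured 34.6, 39.9 and 30.5 CPM with high IMF against 129, 105 and 104 with low IMF, and TIMP3 323, 364 and 241 against 496, 473 and 438, both without overlap. TIMP4, an inhibitor abundant in heart and muscle, had the smallest p of all genes in edgeR (2.31e-05, adjusted p of 0.263) and an adjusted p of 1.49e-10 in DESeq2. The higher ones were BMP1, the protease that trims the other end of procollagen (32.6, 21.9 and 16.4 CPM against 12.8, 13.6 and 15), COL1A1, TGFA and CX3CL1, the last of which ADAM10 and ADAM17 release. BMP1 and TGFA did not overlap between the groups, and COL1A1 and CX3CL1 did. TGFA had 23, 22 and 20 reads with high IMF against 4, 10 and 8 with low IMF, and passed the filter mainly through the high group. COL1A1 measured 166, 129.5 and 33.1 CPM with high IMF against 35.9, 39 and 48 with low IMF. RECK, a membrane inhibitor of MMPs, lay at 8.14 to 16 CPM, TIMP1 at 2.03 to 4.57 CPM and TIMP2 at 65.6 to 204 CPM, each with overlap.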

How the data were processed

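RNA of 6 muscle libraries was sequenced, 3 per group by sample title. The deposited read counts per gene are the authors' whole numbers. The submitters' processing notes name HISAT2 and the build mm9, a mouse build, although the gene names are those of donkey and horse. No source used here gives the counter, annotation or strand treatment, and no coordinates are printed. The deposited FPKM values were used for levels only. The authors' deposited comparison, a ratio of high over low with its log2 value, p-values and adjusted p-values, is quoted only where named. All 53 member symbols were found in RefSeq's table. No sequences are printed.

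Counts were tested with edgeR 4.0.16 (quasi-likelihood, TMM, filterByExpr, R 4.3.3), and p-values were adjusted by Benjamini-Hochberg over 15933 genes with a threshold of 0.05. SE is the log2 fold over the square root of F. DESeq2 1.42.0, limma-voom (limma 3.58.1), other scalings and filters, a replicate block and runs without each library were alternatives. Levels use log2(CPM + 0.05). A count of 3 reads was 0.0632 to 0.0768 CPM. Scripts were tested on simulated data. Members named with every library's value were those at an unadjusted p under 0.05, those without overlap at a mean of at least 1 CPM, the 10 of highest mean FPKM and those past DESeq2's threshold; others were described by class. Members and lists were chosen with earlier results of these data known.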

Additional observations from a re-analysis of the deposited data

How the results depend on the processing

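Each of 49 genes (the 48 tested members and the ADAMTS20-like gene) was recomputed under 14 settings, giving 676 values, since 10 members were not tested under the stricter filter (a mean of 1 CPM, and 10 reads in 3 libraries). Of these, 643 kept their direction and side of the threshold, 3 passed it (MMP15, ADAMTS20 and the ADAMTS20-like gene, in DESeq2) and 30 changed sign, over 16 genes. The number of genes called was 0 in edgeR, 194 in DESeq2 and 0 to 3 over the edgeR runs without 1 library. Over the DESeq2 runs without 1 library, chosen after seeing the data, it was 63 to 635, with 0 to 5 members called against 2 with every library. The number of members at an unadjusted p under 0.05 was 6 (higher) and 1 (lower) in edgeR, 0 lower with library size only, and 3 to 13 higher and 1 to 2 lower over the runs without 1 library, of which 13 came without high IMF replicate 3 and 3 without low IMF replicate 3. The cause was not tested. With library size only the log2 fold changed sign for ADAMTS12 (0.16), ADAMTS15 (0.11), ADAMTS8 (0.12) and MMP11 (0.03). ADAMTS8 also did so in limma-voom (0.08) and with low IMF replicates 2 and 3 summed (0.11). Over the runs without 1 library the log2 fold ranged across 0 for ADAM17 (-0.06 to 0.2), ADAM19 (-0.01 to 0.48), ADAM28 (-0.53 to 0.27), ADAM8 (-0.14 to 0.96), ADAM9 (-0.09 to 0.28), ADAMTS1 (-0.34 to 0.52), ADAMTS12 (-0.7 to 0.39), ADAMTS13 (-0.46 to 0.31), ADAMTS15 (-0.31 to 0.08), ADAMTS3 (-0.34 to 1.99), ADAMTS8 (-0.5 to 0.32), ADAMTS9 (-0.31 to 0.65), ADAMTSL1 (-0.67 to 0.56), ADAMTSL3 (-0.12 to 1.08) and MMP23B (-0.6 to 0.78). The groups share replicate numbers, but same-numbered libraries deviated together only in part (correlations of 0.186, 0.171 and 0.029), and high IMF replicate 2 went best with low IMF replicate 3 (0.208). With the replicate block, edgeR called 0 members. Before adjustment 5 were higher and 1 was lower in that fit, with a median log2 fold of 0.45. Members under about 1 CPM, among them MMP9, rest on few reads.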

Other observations

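MMP14 and TIMP2 together activate the proenzyme of MMP2 at the cell surface, and high IMF replicate 3 was the lowest library for MMP14 and TIMP2. Their ratios within a library, which do not depend on library scaling, were looked at after the values were seen. MMP2 had 0.828, 0.633 and 0.585 reads per TIMP2 read with high IMF against 0.269, 0.297 and 0.329 with low IMF. MMP14 had 0.134, 0.128 and 0.11 reads per TIMP2 read with high IMF against 0.0906, 0.0822 and 0.0864 with low IMF. Neither ratio overlapped between the groups, whereas the CPM values of MMP2, MMP14 and TIMP2 each did. TIMP2 itself measured 182, 195 and 65.6 CPM with high IMF against 116, 195 and 204 with low IMF. Both ratios have TIMP2 as the denominator, which was lowest in high IMF replicate 3, so they are not separate results. A two-sided exact permutation test gave p = 0.1 for each, the smallest that 3 against 3 libraries allow. That value was fixed once ratios already apart were chosen, so it tests nothing. Of all genes tested, 6.4% also had a higher ratio to TIMP2 in every high library than in any low one.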
